A study of Mus musculus with 15 samples.

Results

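Sncg, Krt73, Frem1 and Megf10 are marker genes of cholecystokinin (Cck) interneurons of the Sncg subclass, and were examined here in single VGT3+, Pv+ and Sst+ interneurons. The 4 genes were taken by their symbols from a table of 43629 genes, and each symbol stood for 1 gene. They were chosen because their values varied between the VGT3+ cells, so their levels are a description and carry no test. Each library was made from cytosol drawn through a patch pipette from 1 CA1 neuron of a cultured (organotypic) slice of mouse hippocampus. The slices came from C57BL6 mice of 6 to 7 days of age, with no treatment in any group. There were 5 VGT3+ cells, 5 Pv+ cells and 5 Sst+ cells, picked by red fluorescence in mice that carried a TdTomato reporter and Cre under Slc17a8 (the gene of the vesicular glutamate transporter VGT3), Pvalb or Sst. Cre marks a cell that has expressed the driver gene at any time. A separate Cre line was used for each type, and the type therefore cannot be told apart from the line or from the animals and cultures behind it. The sample titles name the library batches: G556 holds VGT3+ cells 1 to 3, and G709 holds every other library, that is VGT3+ cells 4 and 5 and the Pv+ and Sst+ cells.

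Cck interneurons are GABAergic cells of caudal ganglionic eminence origin, which inhibit pyramidal cells from basket and dendritic terminals and carry the CB1 cannabinoid receptor on those terminals. A part of them contains VGT3. Sncg encodes γ-synuclein, a small soluble protein of nerve terminals and axons, and gives the Sncg subclass of interneurons its name. Krt73 encodes a type II keratin best known from the inner root sheath of the hair follicle. Frem1 encodes a secreted protein of basement membranes that works in a complex with FRAS1 and FREM2, and Megf10 encodes a membrane receptor with EGF-like repeats that astrocytes use in engulfing synapses and dying cells.

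The values are transcripts per 1000000 (TPM), the share of a cell's length-corrected reads that fall on a gene. The genes that drove Cre matched the labels. Every VGT3+ cell held Slc17a8, between 106 and 354 TPM, and its highest value was 0.0327 TPM in a Pv+ cell and 0.0516 TPM in a Sst+ cell. Pvalb was at least 3136 TPM in every Pv+ cell and Sst at least 1804 TPM in every Sst+ cell. The VGT3+ cells had 5463 to 9577 genes above 0, the Pv+ cells 8439 to 11156 and the Sst+ cells 7226 to 10191. Estimated reads on genes, in units of 1000000 (M), lay between 15.8 and 32.2 M per VGT3+ cell, 13.2 and 18.5 M per Pv+ cell, and 14.1 and 22.5 M per Sst+ cell. The labels do not say which cells shared an animal or a slice, so each type counted as 1 sample and no p-value was computed.

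In GRCm38, Sncg lies on the minus strand of chromosome 14 from 34370274 to 34374789 (852 exonic bases), Krt73 on the minus strand of chromosome 15 from 101793308 to 101802346 and Frem1 on the minus strand of chromosome 4 from 82897920 to 83052339, and no other annotated gene overlaps them. The promoters of Sncg and Krt73, the members with the highest levels, are printed from RefSeq (GRCm38.p6), with TATAAA and TAATTA in capitals. Each runs on the minus strand from 250 bases before the RefSeq start to 50 bases after it. For both genes this start differs from that of the coordinates above, which come from GENCODE M21.
Sncg, chr14:34374620-34374919: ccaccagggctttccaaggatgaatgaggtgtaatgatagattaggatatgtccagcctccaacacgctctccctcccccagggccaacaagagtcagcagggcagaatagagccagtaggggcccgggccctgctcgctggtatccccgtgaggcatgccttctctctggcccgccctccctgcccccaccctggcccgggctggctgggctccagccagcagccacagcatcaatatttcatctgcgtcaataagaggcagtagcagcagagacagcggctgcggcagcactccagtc
Krt73, chr15:101802311-101802610: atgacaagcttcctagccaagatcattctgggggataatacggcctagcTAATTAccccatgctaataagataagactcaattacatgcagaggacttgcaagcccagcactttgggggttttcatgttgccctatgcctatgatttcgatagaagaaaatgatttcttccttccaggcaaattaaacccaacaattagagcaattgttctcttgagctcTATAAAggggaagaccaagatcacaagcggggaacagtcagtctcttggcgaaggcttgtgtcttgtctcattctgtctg
The Krt73 window held TATAAA, the core of a TATA box, with its first base 30 bases upstream of the RefSeq start. It also held TAATTA, a core bound by homeodomain proteins. Both strands were searched, and the 2 motifs do not overlap there. TATAAA was present in 13.6% and TAATTA in 5.29% of 32851 promoter windows of the same length. The Sncg window held neither, nor did it hold AGGTCA, a core bound by nuclear receptors such as Nr2f2 (in 16.3% of windows), or CCAAT (in 37.4%). The motifs were chosen after the values were known, and a match is a run of letters, not a binding site.

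Sncg was found in VGT3+ cells 2 and 3 alone. It was listed at 0, 206, 1823, 0 and 0 TPM across VGT3+ cells 1 to 5, and at 0 in all 5 Pv+ cells and all 5 Sst+ cells. In VGT3+ cell 3, Sncg was the 61st most abundant of 5463 genes above 0, with 9349 estimated reads. In VGT3+ cell 2 it had 2164 estimated reads. The other cells had none, which for counting error alone allows up to 0.367 to 0.591 TPM in VGT3+ cells, 0.393 to 0.544 TPM in Pv+ cells and 0.393 to 0.607 TPM in Sst+ cells, the level of 3 reads.

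Krt73 followed the library batch within VGT3+ cells. The 3 cells of G556 had 43.7, 1946 and 156 TPM (VGT3+ cells 1, 2 and 3), and both cells of G709 had 0. In VGT3+ cell 2 it was the 75th most abundant gene, with 51861 estimated reads, 44.5 times the TPM of VGT3+ cell 1. Traces were listed outside the VGT3+ cells. In Pv+ cells 1 to 5, Krt73 was at 0, 0.0634, 0, 0.0515 and 0.0602 TPM, which is 1 estimated read in each of the 3 cells above 0. In Sst+ cells 1 to 5, Krt73 was at 0, 0.155, 0, 0.0550 and 0 TPM, or 3 reads in Sst+ cell 2 and 1 read in Sst+ cell 4. No Pv+ or Sst+ cell thus exceeded the level of 3 reads. Of the 2119 different words of 50 bases in the Krt73 transcript, the length of 1 read of a pair, 28 also occur in Krt71 or Krt74. Both of those keratins were at 0 in all 15 cells. Sncg and Megf10 shared no such word with another gene, and Frem1 shared 3 of 14155.

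The Megf10 gene spans bases 57133090 to 57297467 of chromosome 18, plus strand, with no other gene over it. In VGT3+ cells 1 to 5 it was at 0, 65.8, 122.5, 0 and 42.0 TPM, and it was at 0 in every Pv+ and Sst+ cell. Its values in the cells above 0 lay within 2.92-fold of each other, the narrowest range of the 4 genes. They corresponded to 6250, 5691 and 1931 estimated reads. Megf10 was thus present in both batches, in VGT3+ cells 2 and 3 of G556 and in VGT3+ cell 5 of G709. A value of 0 allows at most 0.0670 TPM in any cell.

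Frem1 was low. VGT3+ cells 1 to 5 had 0, 7.81, 0.333, 0 and 13.3 TPM, and Frem1 was at 0 in all Pv+ and Sst+ cells. Its transcript is long, 13978 bases, so that these values still stood for 1343, 28 and 1103 estimated reads. Frem1 was above 0 in VGT3+ cells 2, 3 and 5, the cells that also held Megf10, but VGT3+ cell 3, highest for Megf10, had little Frem1.

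**Figure D1:**
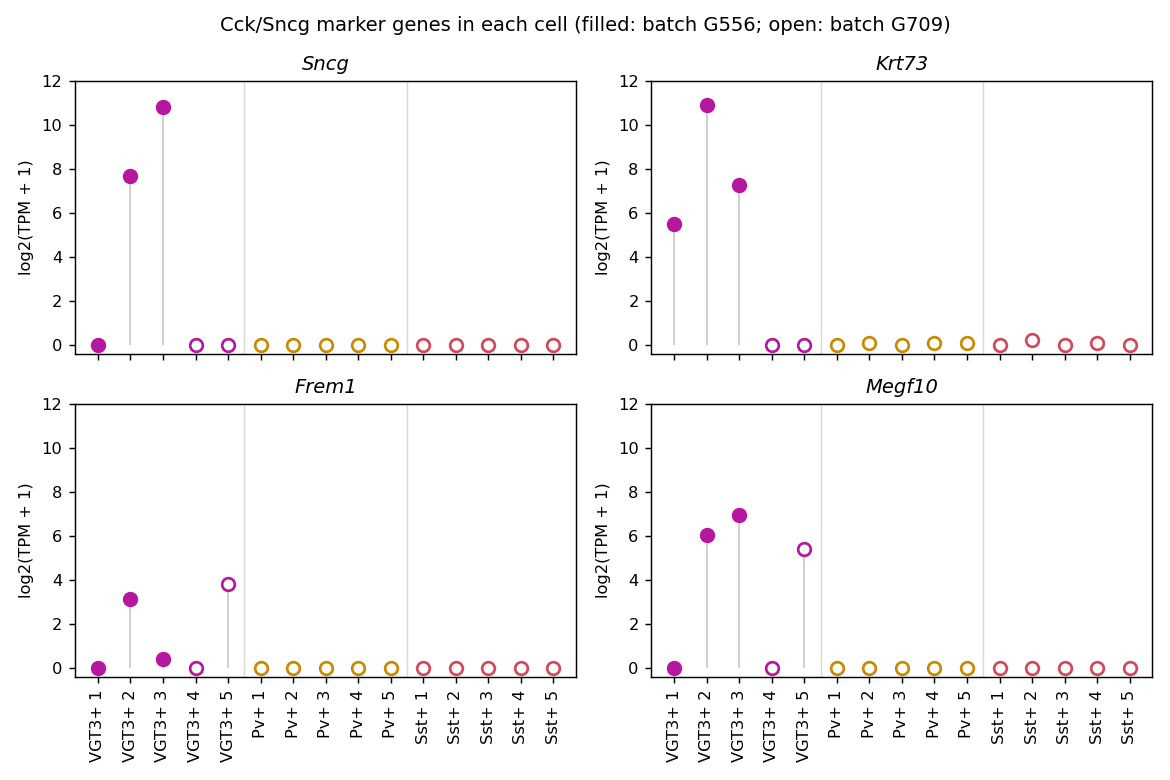
Level of Sncg, Krt73, Frem1 and Megf10 as log2(TPM + 1) in each of the 15 cells, 1 panel per gene, with VGT3+ cells on the left, then Pv+ and Sst+ cells, filled points for batch G556 and open points for batch G709. Points above the baseline stand in VGT3+ cells, apart from the Krt73 traces of at most 0.155 TPM in Pv+ and Sst+ cells.

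VGT3+ cells 2 and 3 listed all 4 genes above 0, VGT3+ cell 5 listed 2 (Frem1 and Megf10), VGT3+ cell 1 listed 1 (Krt73) and VGT3+ cell 4 none. The number of genes above 0 in a library did not follow this order: it was 9208 and 5463 in VGT3+ cells 2 and 3, 9577 in VGT3+ cell 5, 9092 in VGT3+ cell 1 and 6005 in VGT3+ cell 4. The most abundant member differed by cell, with Krt73 highest in VGT3+ cell 2, Sncg in VGT3+ cell 3 and Megf10 in VGT3+ cell 5. Over the 15 cells, Pearson's r of log2(TPM + 1) was 0.84 between Sncg and Krt73, 0.83 between Sncg and Megf10, 0.76 between Frem1 and Megf10 and 0.34 between Sncg and Frem1. Within the 5 VGT3+ cells the values were 0.76, 0.76, 0.61 and 0.03 in the same order. These coefficients describe 15 libraries of which 10 were at or near 0 for every member, and VGT3+ cells 2 and 3, which hold all 4, share a library batch.

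Between types, differences were taken as the mean log2(TPM + 1) of VGT3+ cells minus that of the other type, and a gene was called higher past a difference of 1. All 4 genes were higher in VGT3+ cells than in Pv+ cells by this rule, where 22.7% of 12825 genes averaging at least 1 TPM were higher and 24.1% lower. All 4 were also higher than in Sst+ cells, where 22.9% of genes were higher and 24.7% lower. Both comparisons use the same VGT3+ cells, and the members were chosen for this pattern, so nothing is read from these counts. For Krt73 the mean was 4.74 ± 4.75 in VGT3+ cells (SD, n = 5 cells), against 0.05 ± 0.05 in Pv+ cells and 0.06 ± 0.09 in Sst+ cells. For Sncg it was 3.71 ± 5.19, for Megf10 3.69 ± 3.41 and for Frem1 1.48 ± 1.86 in VGT3+ cells, with 0 in both other types. The SD between VGT3+ cells thus exceeded the difference for Sncg, Krt73 and Frem1 and not for Megf10. A VGT3+ cell lay above a Pv+ cell in 10 of 25 pairs for Sncg and in 15 of 25 pairs for each of the other genes, and the counts against Sst+ cells were the same. Without VGT3+ cell 3 the difference of Sncg to either type was 1.92, and without VGT3+ cell 5 that of Frem1 was 0.89, below the call.

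Within batch G709, which holds all Pv+ and Sst+ cells, 2 of the 4 genes stayed above the call. With VGT3+ cells 4 and 5 alone the difference to either type was 2.71 for Megf10 and 1.92 for Frem1, both from VGT3+ cell 5. It was 0 for Sncg and, for Krt73, -0.05 against Pv+ cells and -0.06 against Sst+ cells. By the same rule 30.6% of genes were higher than in Pv+ cells and 29.7% higher than in Sst+ cells. Between the batches, the mean log2(TPM + 1) of Krt73 was 7.90 in the 3 G556 cells and 0 in the 2 G709 cells, and that of Sncg was 6.18 and 0. Megf10 had 4.34 in G556 and 2.71 in G709, and Frem1 had 1.18 in G556 and 1.92 in G709. Batch and the identity of the cells cannot be told apart in this design.

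Being listed at 0 in some cells was common in VGT3+ libraries. Sncg was at 0 in 3 and Krt73, Frem1 and Megf10 in 2 of the 5 VGT3+ cells. Of the 6025 genes averaging at least 10 TPM in VGT3+ cells, 37.6% were at 0 in at least 2 of these cells, against 11.6% of 4738 such genes for Pv+ cells and 34.9% of 6189 for Sst+ cells. Frem1, whose VGT3+ mean was 4.28 TPM, is not in this set. Of the 3000 genes that reached 100 TPM in a VGT3+ cell, as Sncg, Krt73 and Megf10 did, 28.7% were at 0 in at least 2 of the cells. Of the 293 that reached 1000 TPM, 10.2% were, among them Sncg and Krt73. The members were chosen for varying, so these shares are their background and not a test. The pattern of Krt73, above 0 in all 3 cells of G556 and at 0 in both of G709, was shared by 1.15% of the 6025 genes, and the opposite pattern was held by 1.46%. Sncg shared its pattern (VGT3+ cells 2 and 3) with 0.763% of genes and Megf10 (VGT3+ cells 2, 3 and 5) with 1.73%. Sncg and Megf10 were among the 3.92% of these genes that were at 0 in all 10 Pv+ and Sst+ cells. With up to 3 estimated reads allowed in each of those cells, which takes in Krt73, the share was 4.34% of 5987 genes with an annotated length.

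**Figure D2:**
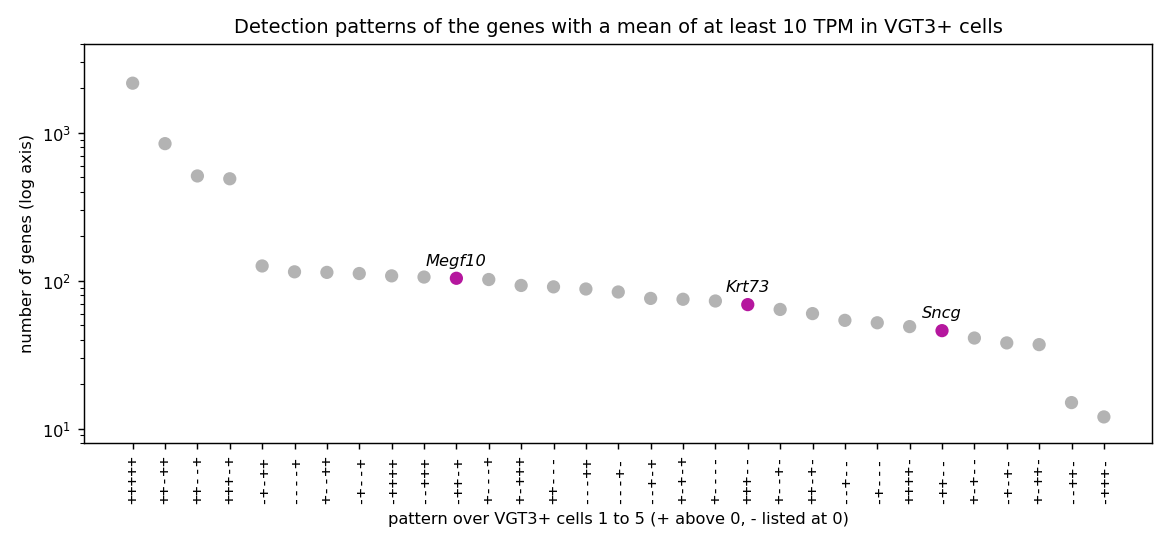
Number of genes (log axis) with each pattern of detection over VGT3+ cells 1 to 5, among the 6025 genes averaging at least 10 TPM in VGT3+ cells. Each point is 1 pattern, and the coloured points are the patterns of Megf10, Krt73 and Sncg, held by 104, 69 and 46 genes, against 2172 genes above 0 in all 5 cells.

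Other genes of Cck interneurons were distributed over the VGT3+ cells in more than 1 way. Of the 22 list genes tested out of 26, 16 were higher and 1 was lower in VGT3+ cells than in Pv+ cells, where 22.7% of all genes tested were higher and 24.1% lower, with a median difference of 3.65 against 0 over all genes tested. Against Sst+ cells 14 were higher and 5 lower, where 22.9% and 24.7% of all genes tested were, with a median of 2.65. Both counts of higher genes include Slc17a8, the Cre driver by which the cells were picked. The list was chosen with earlier results of these data known, so its counts are a description and not a test. Cnr1, the gene of the CB1 receptor, was present in each VGT3+ cell, at 861, 3055, 3210, 1446 and 4702 TPM in cells 1 to 5. Cnr1 was also at 0.455, 203, 10.8, 87.7 and 76.8 TPM in Sst+ cells 1 to 5, and at most 0.121 TPM in Pv+ cells. Htr3a, which encodes an ion channel opened by serotonin, was at 241, 427, 231, 1221 and 1179 TPM. These genes were thus present where Sncg and Krt73 were listed at 0. Cck itself was at 1263, 1154, 557, 1219 and 0 TPM, present in VGT3+ cells 1 and 4, which held few or no members, and at 0 in VGT3+ cell 5. It was also present in all 5 Pv+ cells, at 191 to 677 TPM, and at 0 in the Sst+ cells. Its difference in mean log2(TPM + 1) was -0.69 for VGT3+ minus Pv+ cells, against the direction of the list, and 7.97 for VGT3+ minus Sst+ cells.

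Some genes were lowest in the cells that held Sncg. Tac2, which encodes neurokinin B, was at 6377, 0, 0, 242 and 296 TPM across VGT3+ cells 1 to 5, and thus at 0 in both cells that held Sncg. Outside the VGT3+ cells, Tac2 was at 112 TPM in Sst+ cell 2. Lypd1, which encodes a GPI-anchored modulator of nicotinic receptors, was at 56.6, 0, 0.0708, 425 and 438 TPM in the same cells. Calb1, the gene for calbindin, was at 167, 22.4, 0, 409 and 217 TPM. These 3 genes were all lowest in VGT3+ cells 2 and 3. Tac2, Lypd1 and Calb1 lay beside Megf10 and Frem1 in VGT3+ cell 5, and beside Krt73 in VGT3+ cell 1. Not every list gene set VGT3+ cells 2 and 3 apart from the others. Across VGT3+ cells 1 to 5, Igf1 was at 240, 57.8, 481, 308 and 297 TPM. Rgs12 was at 8.57, 0, 309, 53.5 and 12.3 TPM, and Nr2f2 at 35.3, 33.2, 123, 0.389 and 41.0 TPM. Each was highest in VGT3+ cell 3 and far lower in VGT3+ cell 2, though both cells held Sncg.

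Others were higher in VGT3+ cells 2 and 3, which held all 4 members, than in VGT3+ cells 1 and 4. Npas1, a transcription factor of caudal ganglionic eminence interneurons, was at 0.599, 26.0, 29.8, 0 and 0.161 TPM across VGT3+ cells 1 to 5. It was also at 30.2 TPM in Sst+ cell 3 and 5.76 TPM in Sst+ cell 5. Sp8, a zinc finger transcription factor of the same lineage, was at 1.63, 44.1, 19.1, 0.682 and 24.9 TPM, highest in the 3 cells with Megf10. Adarb2, an RNA-editing enzyme family member that marks the lineage, was at 45.6, 94.3, 171, 18.4 and 16.6 TPM, higher in the cells of G556 than in those of G709. Npy, the gene for neuropeptide Y, was at 3.32, 9121, 89.2, 0 and 0 TPM, highest in VGT3+ cells 2 and 3, and reached far higher levels in Sst+ cells, at 8621 to 125111 TPM. Calca, which encodes calcitonin and the α form of calcitonin gene-related peptide, followed neither pattern, with 212, 47485, 0, 0 and 75.1 TPM. In Sst+ cells 1 to 5 it was at 286, 3879, 0.929, 862 and 281 TPM. Of the markers of the neighbouring Vip and Lamp5 subclasses, Vip was at most 0.546 TPM and Lamp5 and Ndnf were at 0 in the VGT3+ cells. Reln, which encodes the secreted protein reelin and is found with Npy in the Lamp5 subclass, was at 34.0 TPM in VGT3+ cell 3 and at most 0.373 TPM in the other VGT3+ cells. Among Sst+ cells, Reln was at 62.3 to 118 TPM, and Ndnf was at 52.7, 32.8 and 51.8 TPM in cells 3 to 5.

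**Figure D3:**
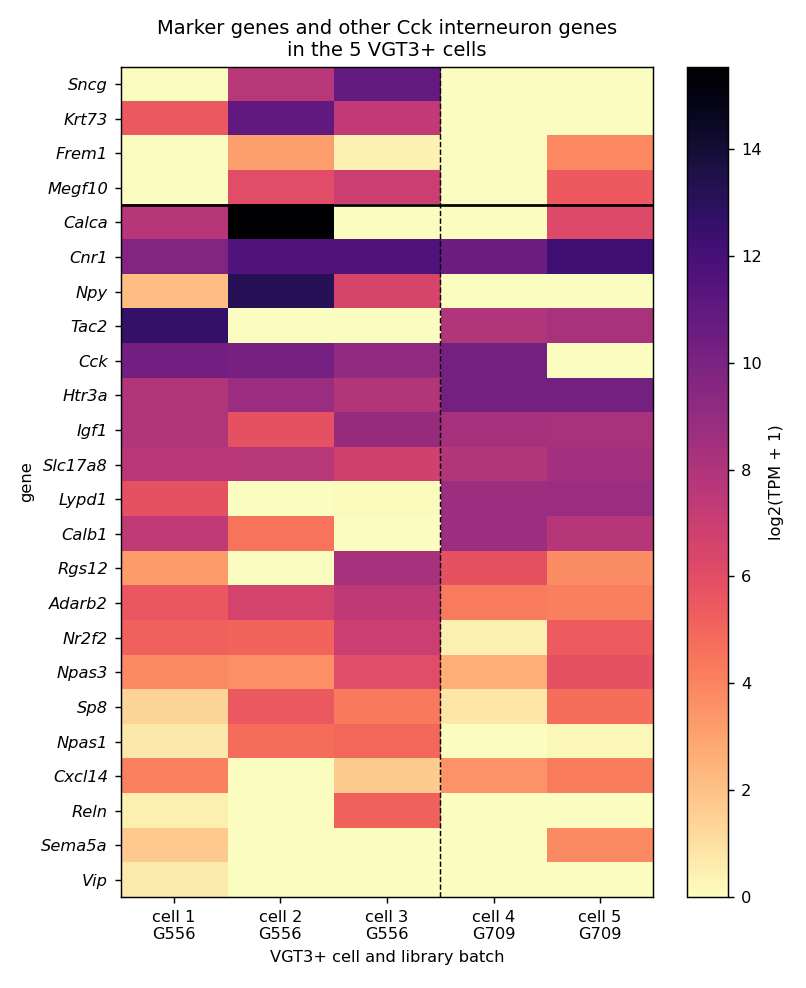
log2(TPM + 1) of the 4 marker genes (above the line) and of the other Cck interneuron genes above 0 in at least 1 of the 5 VGT3+ cells, 1 column per cell, with batch G556 left of the dashed line and G709 right of it. Cnr1 and Htr3a are dark in all columns, whereas Tac2 and Lypd1 are at or near 0 in cells 2 and 3, where all 4 marker genes are above 0.

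Relatives of the members were low or differently distributed. Sncb, which encodes β-synuclein, was at 8.02, 3.79, 0, 0.203 and 0.861 TPM across VGT3+ cells 1 to 5. Its highest value was 36.8 TPM among Pv+ cells and 5.21 TPM among Sst+ cells. VGT3+ cell 3, highest for Sncg, thus had no Sncb. The difference of mean log2(TPM + 1) for Sncb was -1.16 for VGT3+ minus Pv+ cells and 0.62 for VGT3+ minus Sst+ cells.

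Of 46 other keratin genes, 8 were above 0 in any cell. Krt10, a type I keratin of differentiating epidermis, was at 66.2 TPM in VGT3+ cell 1 and at most 0.0388 TPM in the other VGT3+ cells. Krt222, which encodes a keratin-like protein, was at 10.1, 11.7, 0, 28.0 and 89.2 TPM across VGT3+ cells 1 to 5. Of the 6 keratins tested, 0 were higher and 2 lower in VGT3+ cells than in Pv+ cells, and 0 higher and 3 lower than in Sst+ cells, where 24.1% and 24.7% of all genes tested were lower. All 7 keratins of the hair inner root sheath on the list, the type II Krt71, Krt72 and Krt74 and the type I Krt25 to Krt28, were at 0 in all 15 cells. Keratin filaments form from a type I and a type II keratin together. No type I keratin passed 1 TPM in VGT3+ cell 3 or, Krt222 aside, in VGT3+ cell 2. VGT3+ cell 1, with Krt73 at 43.7 TPM, did hold a type I keratin, Krt10, at 66.2 TPM.

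The other FRAS and FREM genes were scarce in VGT3+ cells. Fras1 was at 0 in the VGT3+ cells, Frem2 reached 0.313 TPM in VGT3+ cell 5, and Frem3 was at 0 in all 15 cells. Grip1, an adaptor that carries the FRAS and FREM proteins to the cell surface and also binds AMPA receptors, was at 43.5, 37.0, 0, 0 and 18.7 TPM across VGT3+ cells 1 to 5. Of the 4 Fraser complex genes tested out of 8, 0 were higher and 1 was lower in VGT3+ cells than in Pv+ cells (22.7% and 24.1% of all genes tested), and 0 were higher and 3 lower than in Sst+ cells (22.9% and 24.7%). Among the relatives of Megf10, Megf11 was at 32.3, 53.2, 0, 0 and 44.9 TPM in VGT3+ cells and was present in all 5 Pv+ cells at 4.72 to 29.0 TPM. In Sst+ cells 1 to 5 it was at 0, 16.0, 31.8, 0.0320 and 12.1 TPM. Gulp1, an adaptor protein of engulfment, was at 119 TPM in VGT3+ cell 3, at 0.0411 TPM in Pv+ cell 1 and at 0 in the other cells. Mertk, a receptor kinase of phagocytes, was at 247 TPM in VGT3+ cell 4, where Megf10 was at 0, and at 28.5 TPM in VGT3+ cell 3. Of 11 such genes tested out of 14, 3 were higher and 6 lower in VGT3+ cells than in Pv+ cells (22.7% and 24.1% of all genes tested), and 1 was higher and 1 lower than in Sst+ cells (22.9% and 24.7%).

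RNA of other cell types differed in level between the VGT3+ cells, and its part in the result was not tested. The summed level of 11 microglia markers was 24801, 823, 6201, 20972 and 162 TPM across VGT3+ cells 1 to 5, highest in cells 1 and 4, which held the fewest members. The same sum ranged between 4090 and 17083 TPM among Pv+ cells and between 0.545 and 5616 TPM among Sst+ cells. The summed level of 10 astrocyte markers was 1223, 284, 3553, 795 and 758 TPM in VGT3+ cells. It was highest in cell 3, with the most Megf10, and lowest in cell 2, which also held all 4 members. This sum was 331 to 1332 TPM in Pv+ cells and 247 to 3122 TPM in Sst+ cells. In VGT3+ cell 3, Aldoc made up 3021 TPM of it, Gfap was at 267 TPM, Aldh1l1 at 261 TPM, Aqp4 at 3.37 TPM and Slc1a3 and Gja1 at 0. Sst+ cell 1, with Aqp4 at 668 TPM, Gja1 at 307 TPM and Slc1a3 at 220 TPM, had Megf10 at 0. The markers of fibroblasts other than Ptgds were at 0 in all 15 cells, and the summed level of vessel markers was at most 7.28 TPM in VGT3+ cells. The oligodendrocyte lineage markers summed to 5.88 to 611 TPM in VGT3+ cells, 33.2 to 425 TPM in Pv+ cells and 59.1 to 1299 TPM in Sst+ cells. Pyramidal neuron markers summed to 0 to 72.3 TPM in VGT3+ cells, with Neurod6 at 67.9 TPM in VGT3+ cell 1 and Slc17a7 at 3.05 TPM in VGT3+ cell 3. Of the 6 genes on the list for Cajal-Retzius cells, Cacna2d2 alone was above 0. That list leaves out Reln, which is given above with the Cck interneuron genes. The 8 GABAergic neuron genes summed to 905 to 1999 TPM in VGT3+ cells, and Gad1 and Gad2, which make GABA, were above 145 TPM in each of them. Slc32a1, the vesicular GABA transporter, had 31.0, 27.6, 0, 9.93 and 33.8 TPM across the VGT3+ cells, with a difference in mean log2(TPM + 1) of -2.83 to Pv+ cells and -1.30 to Sst+ cells.

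**Figure D4:**
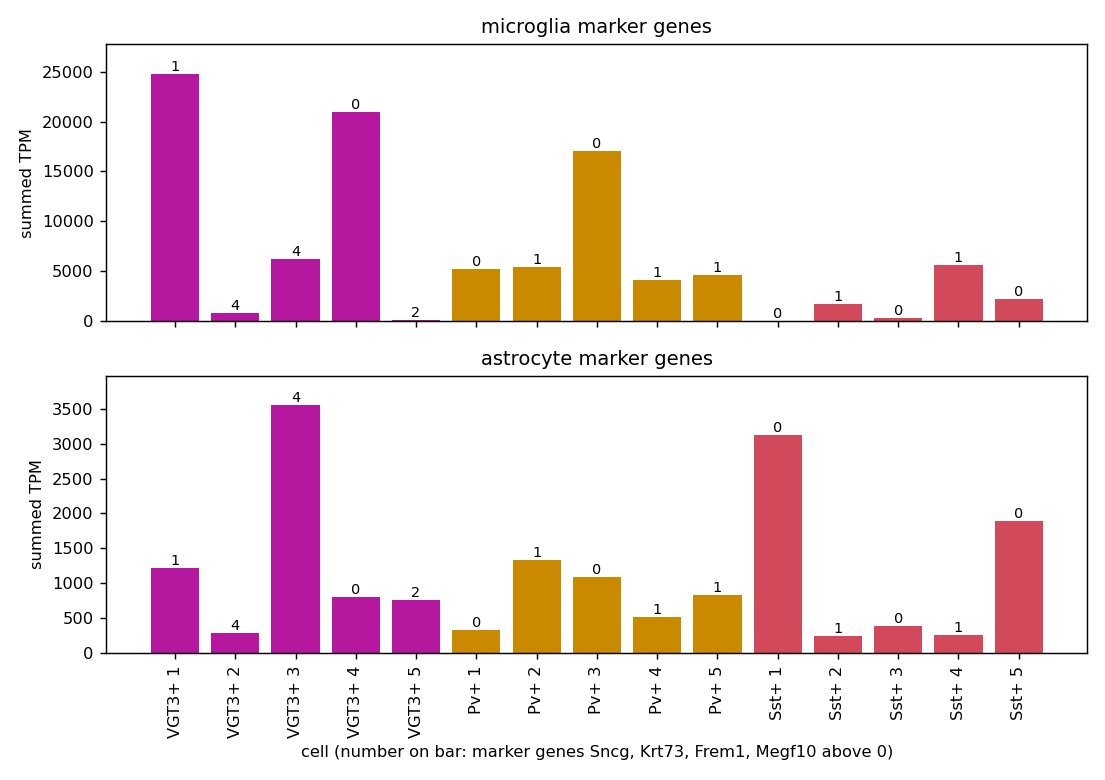
Summed TPM of 11 microglia marker genes (upper panel) and 10 astrocyte marker genes (lower panel) in each cell, with the number of the 4 marker genes above 0 printed on each bar. VGT3+ cells 1 and 4 have the highest microglia sums, 24801 and 20972 TPM, and 1 and 0 of the 4 genes; the 1 over Pv+ and Sst+ bars is a Krt73 trace.

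The genes whose levels were most like each member were ranked by Pearson's r of log2(TPM + 1) over the 15 cells, among the 6025 genes averaging at least 10 TPM in VGT3+ cells. With so few cells above 0 many genes reach a high r, and the coefficients describe these libraries alone. For Megf10 the closest was Npy5r, a receptor for neuropeptide Y, with r = 0.999. VGT3+ cells 1 to 5 had 0, 98.5, 127, 0 and 65.8 TPM of it, and no other cell had any, as Megf10 was. Sp8, with r = 0.96, and Sema4f, a transmembrane semaphorin, with r = 0.95, were also among its 5 closest genes, beside the unnamed transcripts RP23-88A13.4 and Gm29054.

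For Sncg the closest was Zbtb22, a zinc finger gene, with r = 1.00, at 39.4 and 190 TPM in VGT3+ cells 2 and 3 and at most 0.152 TPM in the others. The transcript 5330429C05Rik, Lrrc3, Thap2 and Dolpp1, an enzyme of dolichol recycling, followed with r of 0.98 to 0.92. For Krt73 the coefficients were lower, from 0.90 for 5330429C05Rik to 0.84 for Zbtb22, with Skil, a corepressor of Smad signalling, Pag1, a membrane adaptor that binds the kinase Csk, and Sncg between them. For Frem1 they were 0.99 for Tnfaip8l3, 0.99 for Gm28151, 0.98 for Bmp3, a secreted protein of the TGF-β family, 0.98 for Tdrkh and 0.97 for Terf1, a telomere-binding protein. Except for a trace of Bmp3 in VGT3+ cell 1, these 5 genes were above 0 among VGT3+ cells in cells 2 and 5 alone, and at 0 in cell 3, where Frem1 had 28 estimated reads.

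**Figure D5:**
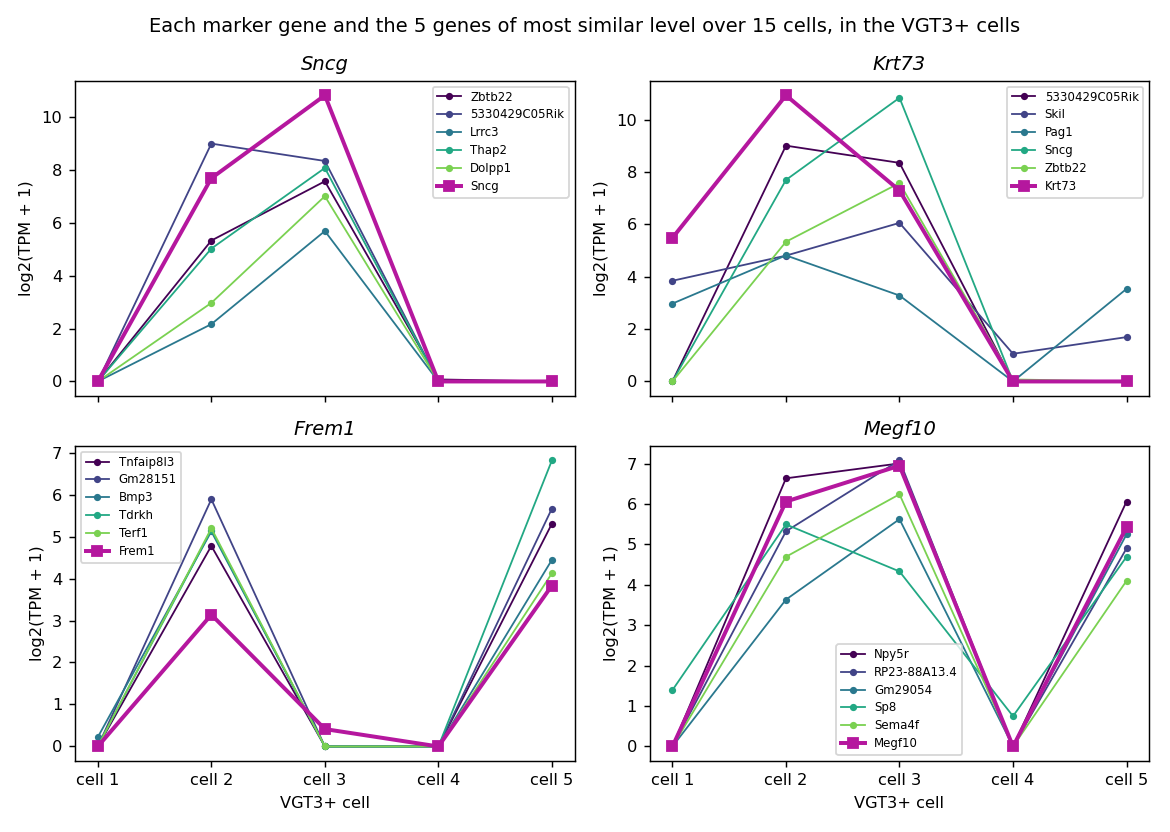
log2(TPM + 1) in VGT3+ cells 1 to 5 of each marker gene (thick line, squares) and of the 5 genes with the highest r to it over the 15 cells. The lines for Megf10 peak in cells 2, 3 and 5, those for Sncg in cells 2 and 3, and those for Frem1 in cells 2 and 5.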

How the data were processed

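Cytosol of 15 single neurons was sequenced as 1 library per cell (SMART-Seq HT, Nextera XT). The authors de-multiplexed with bcl2fastq, aligned to GRCm38 with HISAT2 2.1.0, counted reads per Ensembl gene (HTSeq), and turned the counts into TPM with BioMart lengths. The deposited TPM values add up to 1000000 per cell, with no scaling between cells or batches. The kit does not mark strand.

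Differences of mean log2(TPM + 1), counts and correlations came from Python 3.11.15 (numpy 2.4.6, pandas 2.3.3). Fold changes on this scale understate the change of low genes. A gene was tested in lists where its mean over the 15 cells was at least 1 TPM. The members, lists and rules were chosen with earlier results of these data known. Named genes were the members, the 5 genes closest to each by r, Sncb, label genes and up to 6 genes of each list by VGT3+ mean. Adarb2, Calb1, Lypd1, Npas1, Vip, Lamp5, Ndnf, Reln, Aqp4, Slc1a3, Fras1, Frem3, Krt12 and the inner root sheath keratins, outside that rule, were named after their values were seen. So were Igf1, Rgs12 and Nr2f2. Of the synuclein family, Sncg and Sncb alone are reported here.

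Reads per gene were recovered by dividing out the GENCODE M21 exon length, known for 97.5% of the genes. Among values under 50 estimated reads, 71.8 to 76.1% lay within 0.01 of a whole number. The annotated length of Krt73, 2168 bases, gave no whole reads, and 2165 bases was used. Limits for a value of 0 are the TPM of 3 reads and cover counting error only. Reads carry no molecular identifiers. Alternatives were batch G709 alone, each cell left out, a pseudocount of 0.1, size factors, TPM rescaled without mitochondrial and the 10 highest genes, medians, and other minimum levels.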

Additional observations from a re-analysis of the deposited data

Results flagged for a closer look

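In 16 groups of 5 values, 6 had a highest value set apart from the other 4 cells of its type by more than Dixon's criterion allows. Chance flags about 1 in 20 groups of normally distributed values. These TPM values are skewed, with many at 0, so the number of groups is not read against that rate. Sncg and Krt73 were chosen for varying between VGT3+ cells, so for them the gap is a description and not a test. Among VGT3+ cells these were Sncg in cell 3 (1823 TPM), Krt73 in cell 2 (1946 TPM) and the summed astrocyte markers in cell 3 (3553 TPM). Among Pv+ cells it was the summed microglia markers in cell 3 (17083 TPM). Among Sst+ cells they were Sncb in cell 3 (5.21 TPM) and the number of genes above 0 in cell 4 (10191 genes).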

How the results depend on the processing

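With batch G709 alone, 2 members instead of 4 stayed past a difference of 1 against either type, and Krt73 turned to -0.0491 against Pv+ cells and -0.0569 against Sst+ cells, since it was at 0 in both VGT3+ cells left. With medians over cells 2 members, Krt73 and Megf10, passed, because Sncg had a median of 0 and Frem1 of 0.41. Leaving out each cell in turn gave 3 to 4 members past 1 against either type, with 1.92 to 4.63 for Sncg, 0.89 to 1.85 for Frem1 and 2.87 to 4.61 for Megf10 against both types, and for Krt73 3.14 to 5.88 against Pv+ cells and 3.14 to 5.87 against Sst+ cells. For G556 minus G709 it gave 3.85 to 9.26 for Sncg, 6.39 to 9.11 for Krt73, -2.65 to 1.18 for Frem1 and -1.09 to 4.34 for Megf10, so the batch difference of Megf10 turned without VGT3+ cell 4 and that of Frem1 without VGT3+ cell 5. All 4 members stayed past 1 with a pseudocount of 0.1, with rescaled TPM and with size factors, which removed a median difference of 0.38 to Pv+ cells among 1709 genes that no cell lacked. The share of genes at 0 in at least 2 VGT3+ cells was 37.6% and became 61.6% with detection at 10 TPM, 65.1% with no minimum mean, 10.0% with a minimum mean of 100 TPM and 10.2% among genes reaching 1000 TPM, a threshold chosen after seeing the data. The number of Cck interneuron genes called higher stayed within 1.5 times under the settings run. No paired analysis was possible because no test was made and a shared cell number pairs nothing. Depth limits a value of 0 to the level of 3 reads, at most 0.607 TPM for Sncg. With 5 cells a type and no animals named, the spread between animals is not known.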

Other observations

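Of the other keratin genes, Krt12, a type I keratin known from the corneal epithelium, was at 0 in all 5 VGT3+ cells, against 272, 35.0, 20.3, 18.0 and 71.0 TPM in Pv+ cells 1 to 5, and it was at 0 in all 5 Sst+ cells. The Pv+ cells belong to batch G709, as do VGT3+ cells 4 and 5 and the Sst+ cells, so that the difference is also present within 1 batch. Krt12 was picked out after its values were seen, and what it means was not tested.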
